A study of Mus musculus with 4 samples.

Results

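Axon guidance genes encode the cues and receptors that steer growing axons and migrating neurons. They were taken as the genes whose array annotation gave a single symbol of the Eph, ephrin, semaphorin, plexin, neuropilin, Slit, Robo, netrin or Unc5 families, or Dcc or Neo1. This gave 70 genes on 157 probe sets, of 18193 singly named genes on 35041 probe sets. The rule used symbols only and no signal, though it was set with earlier results of these data known. One of them, Plxna4os1, is by its name a transcript from the opposite strand of Plxna4 and no ligand or receptor.

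The RNA came from neurospheres, floating cultures of neural stem and progenitor cells, grown from mouse forebrain at stage E12.5, with the ventral telencephalon given as the region for both genotypes. There was 1 E2f4 knockout sample and 1 wild-type sample, and each RNA was hybridised to 1 MOE430A and 1 MOE430B array, 4 arrays in all. These Affymetrix designs carry largely different probe sets, so a gene can be seen by several short regions of its transcript. The E2f4 allele, the mouse strain, the cultures' passage and the number of embryos per culture are not given in the sources used here. With no replicate of either genotype, the differences below carry no p-values and no error between cultures.

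Values are MAS5 signals, the linear output of Affymetrix's software for the brightness of a probe set, and a ratio is the log2 of the knockout signal over the wild-type signal, centred on the median of its design. The median signal of a design, 735 on MOE430A and 942 on MOE430B, served as a floor, and probe sets with both signals at or over it are called measured. A gene's value is the mean ratio of its measured probe sets. The arrays of a design were hybridised on 1 day, so genotype was not mixed with day. The single E2f4 probe set read 1535 in the knockout sample and 1812 in the wild type; its position relative to the deleted part is not given, so it does not check the label. All 18 listed genes of neural stem and progenitor cells were measured, with a median ratio of 0.15. That does not show a culture of such cells alone, as genes of other cells were bright too. The neuron gene Map2 read up to 27299 in the knockout sample and 33888 in the wild type. The cortical gene Neurod2 read up to 14543 and 9669, and the embryonic globin Hbb-y up to 69939 and 89828, in the same order. Of the 16 ventral telencephalon genes on the arrays 12 were measured, with a median of -0.46 and 11 of 12 lower in the knockout sample. The dorsal list had a median of 0.36, with 12 of 17 higher, and the neuron list a median of -0.17, with 17 of 20 lower. Of all measured genes 49.8% were higher in the knockout sample. In such bulk RNA fewer cells of a type and less RNA per cell cannot be told apart.

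The main guidance systems work in pairs. Ephrins sit on cell surfaces and bind Eph receptor tyrosine kinases on the neighbouring cell, with signals in both directions. Semaphorins act through plexins, and the secreted class through neuropilins as co-receptors. Slits repel axons through Robo receptors, and netrins attract through Dcc or repel through Unc5 receptors. In the ventral forebrain these systems guide interneurons on their way to the cortex and axons that cross it.

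Of the 70 genes, 45 were measured, 9 had a probe set that cleared the floor only in 1 of the samples, and 16 reached it in neither sample on any probe set. The measured genes lay close to 0, with a median ratio of 0.03 against -0.001 for all 10174 measured genes. Of the 45, 28 were higher in the knockout sample, or 62.2%, where 49.8% of all measured genes were. That count depended on the probe sets taken: it was 21 of 45 with the brightest probe set per gene, 33 of 61 under a floor at the 30th percentile, 35 of 70 with no floor and 33 of 70 with a pseudocount in its place. The genes as a group therefore show no settled direction. None was at least 2-fold higher, where 0.531% of all measured genes were, and Slit2 alone was at least 2-fold lower, where 0.482% were. Ratios of 42 of the 45 lay within 0.5 of 0, or 93.3%, against 89.1% of all measured genes.

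**Figure D1:**
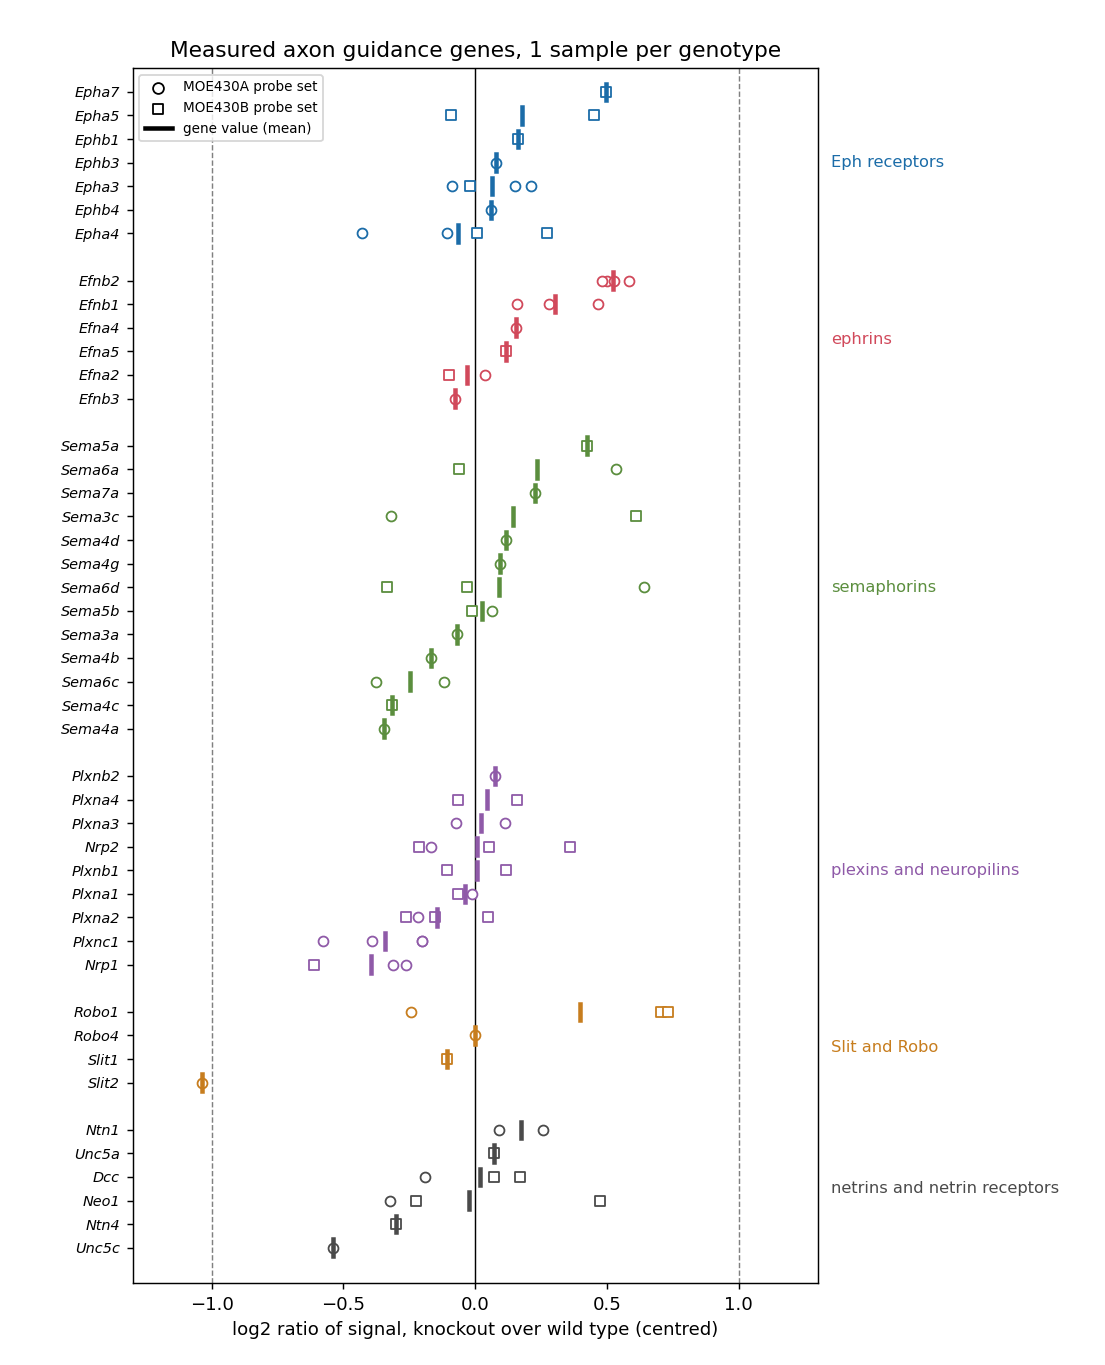
Log2 ratio of knockout over wild-type signal (x axis) for each of the 45 measured genes, grouped by family (colours). Circles are MOE430A and squares MOE430B probe sets, thick bars the gene value, and dashed lines mark 2-fold; Efnb2 has 4 probe sets between 0.48 and 0.58, and Slit2 at -1.04 is the 1 gene past a dashed line.

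These arrays offer 2 technical errors, both of which leave out the spread between cultures. Over 99 probe sets carried by both designs, the ratios from MOE430A and MOE430B differed with an SD of 0.31. That is the SD of a difference between 2 ratios, while the pooled SDs that follow are of single ratios. The other error is the disagreement between probe sets of a gene. Its pooled SD was 0.28 over the 23 guidance genes with more than 1 measured probe set, and 0.33 over 3957 genes of all kinds. The gene values spread less where more probe sets were averaged. The central 95% of all genes ran from -0.76 to 0.74 for 6217 genes with 1 measured probe set, and from -0.36 to 0.38 for 527 genes with 4 or more. Guidance genes are read below against the genes with the same number of measured probe sets. Of 12 guidance genes with at least 3 measured probe sets, 4 had all of them on one side of 0, or Efnb1, Efnb2, Nrp1 and Plxnc1, where 24.4% of all such genes did.

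The promoters of these 4 genes and of Slit2 are shown because E2F proteins act by binding DNA near gene starts. They are the 250 bases before the RefSeq gene start on GRCm38.p6. Efnb1 lies at chrX:99135811-99136060 and Slit2 at chr5:47982905-47983154 on the plus strand, as does Nrp1 at chr8:128358823-128359072. Efnb2 lies at chr8:8661243-8661492 and Plxnc1 at chr10:94944846-94945095 on the minus strand. Each reads 5′ to 3′ towards the gene, and capitals mark GGCGGGA, a short form of the E2F site, on either strand.
Efnb1: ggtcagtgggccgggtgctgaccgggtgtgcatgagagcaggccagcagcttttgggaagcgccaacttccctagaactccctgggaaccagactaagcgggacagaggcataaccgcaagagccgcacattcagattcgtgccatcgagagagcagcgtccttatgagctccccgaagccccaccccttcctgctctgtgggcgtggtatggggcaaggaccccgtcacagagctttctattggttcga
Efnb2: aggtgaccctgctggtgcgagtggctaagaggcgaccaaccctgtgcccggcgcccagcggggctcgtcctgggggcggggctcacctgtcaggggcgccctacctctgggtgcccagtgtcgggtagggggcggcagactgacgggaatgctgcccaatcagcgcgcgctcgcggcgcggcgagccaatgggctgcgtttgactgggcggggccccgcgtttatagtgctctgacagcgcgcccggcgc
Nrp1: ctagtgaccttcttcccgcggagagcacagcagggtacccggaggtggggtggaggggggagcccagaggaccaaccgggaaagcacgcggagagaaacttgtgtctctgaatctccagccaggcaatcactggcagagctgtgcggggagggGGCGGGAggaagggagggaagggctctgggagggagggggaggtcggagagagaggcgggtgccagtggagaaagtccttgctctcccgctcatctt
Plxnc1: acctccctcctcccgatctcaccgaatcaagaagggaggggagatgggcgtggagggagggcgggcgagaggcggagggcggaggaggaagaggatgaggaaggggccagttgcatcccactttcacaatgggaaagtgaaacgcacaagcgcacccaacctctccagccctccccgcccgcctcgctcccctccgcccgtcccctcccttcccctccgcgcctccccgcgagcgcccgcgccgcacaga
Slit2: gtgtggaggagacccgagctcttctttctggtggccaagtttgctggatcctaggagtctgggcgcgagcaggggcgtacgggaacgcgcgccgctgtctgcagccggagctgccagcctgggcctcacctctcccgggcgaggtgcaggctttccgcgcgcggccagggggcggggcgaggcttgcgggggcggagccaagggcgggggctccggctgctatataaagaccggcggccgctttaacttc

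Only the Nrp1 window holds that word, once, among these 5. The windows were rich in G and C, from 60.0% for Efnb1 to 72.0% for Efnb2. Over the RefSeq windows of 300 bases, from 250 before to 50 after the start, 59 of the 70 guidance genes had an entry. GGCGGGA on either strand was in 14 of the 59, or 23.7%, against 12.7% of 27025 genes. The median share of G and C was 65.3% for the guidance genes and 52.8% for all, and the part of base composition in the first difference was not tested. None of the longer E2F words TTTCCCGC, TTTGGCGC, TTTCGCGC and TTTGCCGC, on either strand, was in a guidance window, where 2.60% of all genes held one. A word match is a description of these letters and shows no binding.

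Ephrins of the B class, transmembrane ligands that also signal back into their own cell, were higher in the knockout sample on every probe set of 2 of the 3 members. Efnb2, the ligand of Ephb4 and of several other EphB receptors and of Epha4, read 6915, 3565, 2598 and 1458 in the knockout sample, against 4898, 2562, 1809 and 975.5 in the wild type. The knockout signal was above the wild-type signal on all 4 probe sets, which all lie on MOE430A. The gene ratio was 0.52, or 1.44-fold higher, and 5 of the 527 genes with 4 or more measured probe sets, itself among them, stood at or above it. Efnb1 read 5981, 5343 and 4666 in the knockout sample, against 4334, 4404 and 4188 in the wild type, likewise higher on each. Its ratio was 0.30, and 65 of 935 genes with 3 measured probe sets were at or above it. Efnb3, a B-class ligand known as a midline repellent, read 3888 in the knockout sample and 4111 in the wild type, a ratio of -0.08.

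Ephrins of the A class, anchored to the membrane by a lipid, lay close to 0. Efna5, a repellent of A-class receptors, read 12479.5 in the knockout sample and 11522 in the wild type on its measured probe set, a ratio of 0.12. Efna4 was at 0.16 and Efna2 at -0.03. Efna3 was over the floor only in the knockout sample on MOE430A and only in the wild type on MOE430B, with opposite directions. Efna1 was below the floor, with signals between 49.9 and 259. The median of the 6 measured ephrins was 0.14, with 4 higher in the knockout sample, where 49.8% of all measured genes were higher.

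Of 13 Eph receptor genes 7 were measured, with a median of 0.08. Of the 7, 6 were higher in the knockout sample, all by less than 1.5-fold, where 49.8% of all measured genes were higher. Apart from Epha7 these ratios were at most 0.18, less than the pooled SD of 0.28 between probe sets of a guidance gene. Epha7, a receptor that shapes forebrain connections and progenitor survival, read 2017 in the knockout sample and 1430 in the wild type, a ratio of 0.50. That rested on 1 MOE430B probe set, and 3 others on MOE430A were below the floor with lower knockout signals; the mean over all 4 was -0.37 with no floor. Epha4, a receptor for ephrins of both classes, had 4 measured probe sets between -0.43 and 0.27 and a gene value of -0.06, the lowest of the family. Epha3, a receptor for A-class ephrins, was at 0.06 with probe sets between -0.09 and 0.21. Epha5, of the same class, had probe sets at -0.09 and 0.45 and a gene value of 0.18. The B-class receptors Ephb1, Ephb3 and Ephb4, which bind ephrins of the B class, stood at 0.16, 0.08 and 0.06, each on 1 probe set. Epha1, Epha2, Epha6, Epha8, Epha10 and Ephb6 were below the floor in both samples, with signals between 38.8 and 635.

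Receptors of the semaphorin system included the members that were lower on several probe sets. Nrp1, the neuropilin that binds Sema3a and also vascular endothelial growth factor, read 1275, 775 and 2829.6 in the knockout sample, against 1585, 931 and 4322 in the wild type. These signals were lower in the knockout sample on each probe set and on both designs. Its ratio was -0.39, or 1.31-fold lower, and 29 of 935 genes with 3 measured probe sets lay at or below it. A further probe set, below the floor in both samples, read 583 in the knockout sample and 364 in the wild type. Under the 30th-percentile floor, which takes it in, the ratio of Nrp1 was -0.13. Plxnc1, the plexin that binds Sema7a, read 1758, 1437, 978 and 941 in the knockout sample, against 2026, 1889, 1464 and 1085 in the wild type. All 4 were lower in the knockout sample, and another on MOE430B was over the floor only in the wild type, with 819.7 in the knockout sample and 1636 in the wild type. A further MOE430B probe set, below the floor in both samples, ran the other way, with 117 in the knockout sample and 60.6 in the wild type. The ratio of Plxnc1 was -0.34, or 1.27-fold lower, with 20 of 527 genes at or below it.

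The other 7 measured plexin and neuropilin genes lay between -0.15 and 0.07. Nrp2, the neuropilin that binds Sema3f, had probe sets at -0.21, -0.17, 0.05 and 0.36 and a gene value of 0.01. The class A plexins, which pair with neuropilins, were at -0.15 for Plxna2, -0.04 for Plxna1, 0.02 for Plxna3 and 0.05 for Plxna4. Plxnb1 and Plxnb2, receptors of class 4 semaphorins, were at 0.01 and 0.07. The family median of 0.005 changed sign to -0.002 with quantile normalization and to -0.0009 with lowess, so it gives no direction. Plxnb3 had 1 probe set at 2494 in the knockout sample and 454 in the wild type, at least 2.65-fold higher, and another at 707 in the knockout sample and 819 in the wild type, over the floor only in the wild type. Plxnd1, a plexin known from blood vessels, and Plxna4os1 were below the floor.

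Semaphorin ligands were divided. Of 20 genes 13 were measured, 8 of them higher in the knockout sample and 5 lower, where 49.8% of all measured genes were higher. Their median of 0.09 was below 0 in 6 of 11 alternatives, among them every other floor. Sema5a, a transmembrane semaphorin with thrombospondin repeats, read 6665 in the knockout sample and 4968 in the wild type on its measured probe set, the highest ratio at 0.43. A pair of probe sets on MOE430A were over the floor only in the knockout sample, with 848 and 893 there against 624 and 646 in the wild type, and a further one on MOE430B was above it in the wild type alone, with 431 in the knockout sample and 1409 in the wild type. Its gene value was -0.09 under the 30th-percentile floor. Sema6a, a ligand of class A plexins, was at 0.24 from probe sets at -0.06 and 0.53, and Sema6d at 0.09 from -0.33, -0.03 and 0.64. A further Sema6d probe set was over the floor only in the wild type, with 255 in the knockout sample and 1016 in the wild type. Sema7a, the lipid-anchored ligand of Plxnc1, was at 0.23, with 1274 in the knockout sample and 1091 in the wild type.

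Sema3c, a secreted semaphorin, was at 0.15 from probe sets that disagreed, at -0.32 and 0.61. Sema3a, the secreted repellent that binds Nrp1, read 992 in the knockout sample and 1044 in the wild type, a ratio of -0.07. Of all genes with 2 measured probe sets, as Sema3c has, the central 95% ran from -0.50 to 0.51. On the lower side stood class 4 members, transmembrane ligands of plexin B receptors among other partners. Sema4a read 801 in the knockout sample and 1021 in the wild type, a ratio of -0.35, the lowest of the measured semaphorins, and -0.69 with no floor. Sema4c, a ligand of Plxnb2, was at -0.32 with 4124 in the knockout sample and 5139.8 in the wild type, and Sema4b was at -0.17. Sema6c was at -0.25 from probe sets at -0.38 and -0.12. Sema4d, a ligand of Plxnb1, at 0.12, Sema4g at 0.10 and Sema5b at 0.03 were on the other side of 0. Sema3b, Sema3d and Sema6b were below the floor on every probe set.

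In the Slit and Robo system, the secreted repellent Slit2 had the largest difference of any measured guidance gene. Its measured probe set on MOE430A read 1190.2 in the knockout sample and 2448 in the wild type, a ratio of -1.04, or 2.05-fold lower. Its other probe sets did not share a direction. One on MOE430B read 1159 in the knockout sample and 589 in the wild type, at least 1.23-fold higher, and one on MOE430A was below the floor with 30.8 in the knockout sample and 253 in the wild type. Under the 30th-percentile floor the mean for Slit2 was -0.03. Among 6217 genes with 1 measured probe set, 42 lay at or below -1.04.

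Slit1, which with Slit2 is known for repelling neurons and axons in the ventral forebrain, read 1846 in the knockout sample and 1988 in the wild type, a ratio of -0.11. Robo1, a receptor of both, split by design. Its MOE430B probe sets read 1578 and 1642 in the knockout sample, against 969 and 990.1 in the wild type, while the MOE430A probe set read 779.8 in the knockout sample and 925 in the wild type. The gene value was 0.40, with 27 of 935 genes at or above it, and it was -0.24 on MOE430A alone. Robo4, the Robo of blood vessels, was at 0.00, with 758 in the knockout sample and 759.8 in the wild type. Robo3, which lets commissural axons cross the midline, was over the floor only in the wild type on 1 probe set, with 235 in the knockout sample and 1162 in the wild type. Robo2 and Slit3 were below the floor.

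**Figure D2:**
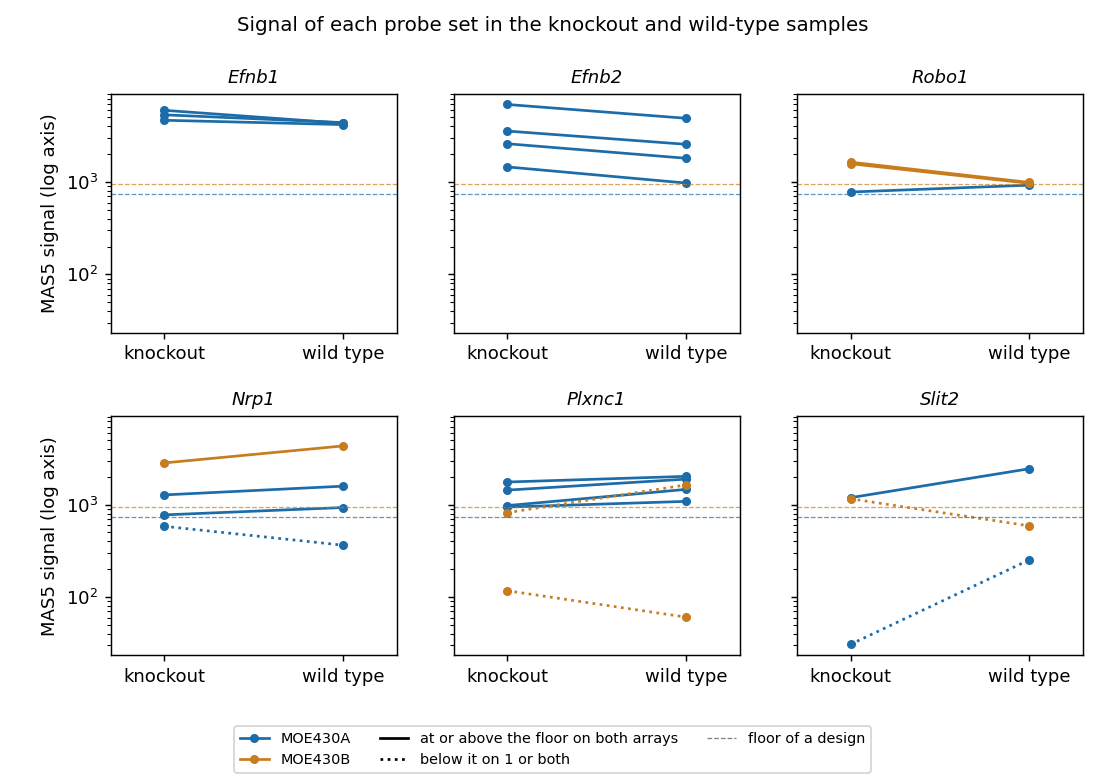
MAS5 signal (log y axis) of every probe set of Efnb1, Efnb2, Robo1, Nrp1, Plxnc1 and Slit2 in the knockout (left) and wild-type (right) sample, joined by a line per probe set; blue is MOE430A, orange MOE430B, dashed lines the floors and dotted lines probe sets that were not measured. All lines of Efnb1 and Efnb2 run higher on the knockout side, while those of Slit2 run in opposite directions.

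Netrins and their receptors went both ways, with 3 of 6 measured genes higher in the knockout sample and 3 lower. Their median of -0.003 was 0.004 with quantile normalization, 0.002 with lowess, -0.14 without probe sets named _x_at, _s_at or _a_at and -0.26 on MOE430A alone, so it gives no direction. The attractant Ntn1 had probe sets at 0.09 and 0.26 and a gene value of 0.17; the probe set at 0.26 read 2327 in the knockout sample and 1953 in the wild type. Ntn4, a netrin related to laminin chains that is found in basement membranes, was at -0.30. Dcc, the attractive receptor, had signals of 10860.2, 8654 and 2347 in the knockout sample, against 10344, 7689 and 2681 in the wild type, and a gene value of 0.02. Neo1, a relative of Dcc that also binds RGM proteins, was at -0.02, with measured probe sets between -0.32 and 0.47. A further Neo1 probe set was over the floor only in the wild type with 871 in the knockout sample and 1500.3 in the wild type, at least 1.59-fold lower under knockout.

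The repulsive Unc5 receptors differed among themselves. Unc5c read 1389 in the knockout sample and 2027 in the wild type on its measured probe set, a ratio of -0.54, and its other probe set, over the floor only in the knockout sample, read 801 there and 667 in the wild type. Under the 30th-percentile floor, with both probe sets, Unc5c was at -0.14. Unc5a was at 0.07, with 4686 in the knockout sample and 4460.4 in the wild type. Unc5b, which also acts in blood vessels, was over the floor only in the wild type on both of its probe sets. They read 495 and 241 in the knockout sample, against 966 and 1455 in the wild type, with bounds of at least 1.31-fold and 1.55-fold lower. Unc5d was over the floor only in the knockout sample, with 1527 there and 679 in the wild type, at least 1.62-fold higher. Ntn3 and Ntn5 were below the floor.

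Bounds came from probe sets over the floor in just 1 sample, as the brighter signal over the floor. They describe those signals only and leave out the error between probe sets. Their direction is set by which sample cleared the floor. Of 20 guidance probe sets over the floor in just 1 sample, 7 cleared it in the knockout sample and 13 in the wild type. Of 3787 such probe sets of all genes, 49.4% cleared it in the wild type. Of the 13, 11 were on MOE430B, or 84.6%, where 56.5% of the 1872 such probe sets of all genes were. On MOE430B 11 of 14 guidance probe sets over the floor in a single sample cleared it in the wild type, where 50.1% of 2110 did over all genes. The bound was at least 2-fold higher for 1 of the 20, where 2.93% were over all genes, and at least 2-fold lower for 1, where 3.56% were. These were Plxnb3 and Sema3f, the secreted ligand of Nrp2 and a repellent of interneurons. The Sema3f probe set on MOE430B read 869 in the knockout sample and 3677 in the wild type, at least 3.91-fold lower. Of the MOE430B probe sets with bounds, the names of those for Sema3f and Sema4f end in _x_at and of those for Plxnb3 and Plxnc1 in _s_at, endings that mark probes able to match other transcripts. The other Sema3f probe sets, on MOE430A, were below the floor. Sema3g was at least 1.60-fold lower on its only probe set, with 814 in the knockout sample and 1504 in the wild type. Sema4f and Sema3e were likewise over the floor only in the wild type, at least 1.35-fold and 1.03-fold lower.

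**Figure D3:**
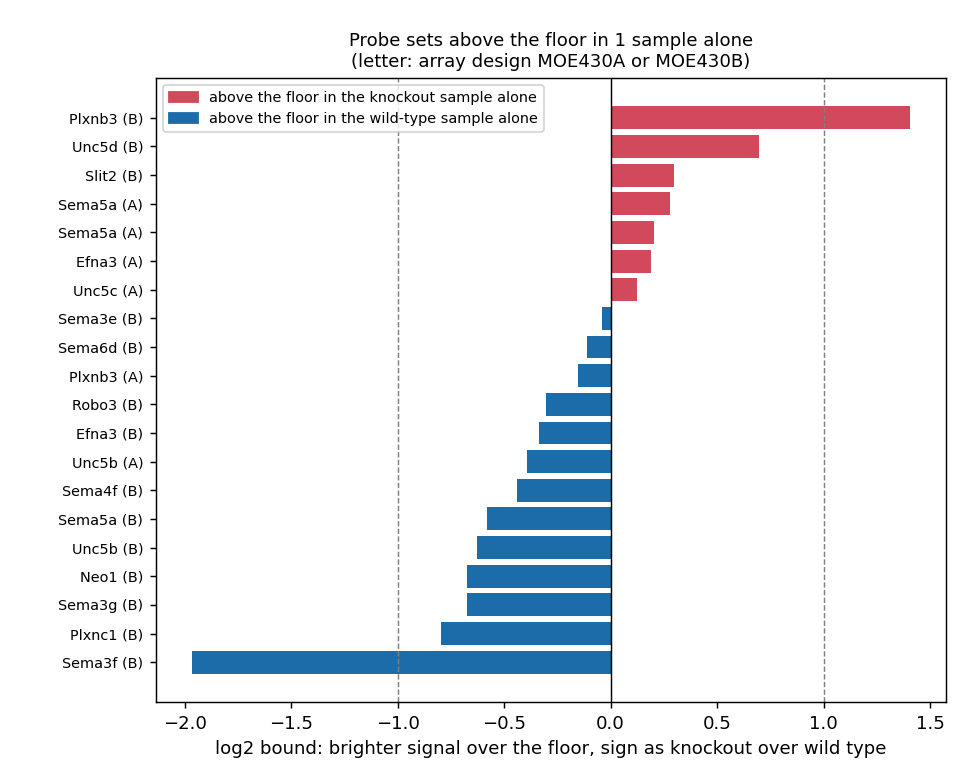
Log2 bound (x axis, brighter signal over the floor, negative where the wild type was the brighter) of the 20 guidance probe sets over the floor in just 1 sample, with the array design in brackets. Red bars are over the floor only in the knockout sample (7) and blue bars in the wild type alone (13); dashed lines mark 2-fold, passed by Plxnb3 and Sema3f.

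Other parts of the guidance machinery were taken from a list of 74 genes of signal transducers, adhesion molecules and co-receptors outside the families above. Of these 69 were on the arrays and 61 measured; 22 were higher in the knockout sample and 39 lower, with a median ratio of -0.08, where 49.8% of all measured genes were higher. Cxcl12, the chemokine that draws migrating interneurons, was the 1 gene at least 2-fold higher, where 0.531% of all genes were, and none was at least 2-fold lower, where 0.482% were. It read 2649 in the knockout sample and 1290.05 in the wild type on 1 probe set, and 2 others were below the floor. Cntn2, an axonal adhesion molecule, was higher on all 4 probe sets, with 6314, 5391, 3821 and 1824 in the knockout sample, against 3237, 2914, 2182 and 1651 in the wild type. Its ratio of 0.70 was the highest of the 527 genes with 4 or more measured probe sets. Dscam, a receptor that can bind netrin, was at 0.76 from probe sets at 0.18 and 1.34. Its probe sets below the floor went both ways, with 34.2, 395 and 778 in the knockout sample, against 561, 71.3 and 230 in the wild type. Flrt2, a ligand of Unc5 receptors, was lower on each of 3 probe sets, with 2682, 3555 and 1029 in the knockout sample, against 5072, 4954 and 1250 in the wild type. Vasp, an actin regulator of growth cones, was at -0.62 and Cntn1, an adhesion molecule of axons, at -0.55, each from 1 measured probe set. Another Cntn1 probe set was over the floor only in the wild type, with 659 in the knockout sample and 1241 in the wild type. A further one, below the floor, read 264 in the knockout sample and 115 in the wild type. Srgap1, Srgap2 and Srgap3, which act downstream of Robo receptors and were picked with their values in view, were at -0.54, -0.31 and -0.23. Srgap1 and Srgap3 each rested on 1 measured probe set. Other listed signal transducers went both ways, with Mical2 at 0.48, Rock1 at 0.25 and Limk1 at 0.23, but Mical3 at -0.35 and Limk2 at -0.28.

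Several guidance genes are also used by blood vessels, Efnb2, Ephb4, Nrp1, Unc5b, Plxnd1 and Robo4 among them. Of 12 endothelial genes 5 were measured, 2 higher and 3 lower, with a median of -0.13. The summed signal of the list was 11233 in the knockout sample and 11806 in the wild type on MOE430A. On MOE430B it was 2226 in the knockout sample and 244 in the wild type. All probe sets of the 5 measured genes lay on MOE430A, so the MOE430B sums came from genes that were not measured. The wild-type sum of 244 is below the floor of 942 for a single probe set, and the knockout sum of 2226 is above it. The difference between these sums was not tested. Pecam1, Cdh5, Tek, Tie1, Flt1, Emcn and Plvap had no probe set at or above the floor in both samples. The neuron list summed to 250014 in the knockout sample and 283035 in the wild type on MOE430A. The ventral list summed to 28501 in the knockout sample and 40734 in the wild type there, and the dorsal list to 67782 in the knockout sample and 57936 in the wild type. Fewer genes were measured of the lists for astrocytes and oligodendrocytes (6, median -0.30), mesenchyme and pericytes (4, median 0.20), microglia (2, median -0.44) and erythroid cells (5, median -0.33). The erythroid list was bright even so, and summed to 218764 in the knockout sample and 284179 in the wild type on MOE430A. The part of these shifts in the guidance genes' values was not tested.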

How the data were processed

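Total RNA was labelled without amplification, per the labels' protocols, and hybridised to MOE430A and MOE430B arrays. The deposited values are signal values on a linear scale from MAS5, which the authors ran per the submitters' processing notes (no version given). The values show scaling to a trimmed mean of about 1500 per array, and no detection calls were used here. The deposited instrument records, of mixed text fields, served only to compare hybridisation days. No depth exists for arrays; their number limits the precision. Log2 ratios were centred on the median of each design, a shift of -0.003 and -0.001. The floor was the mean of the 2 arrays' median signals, which left 10402 probe sets of MOE430A and 9530 of MOE430B as measured. Symbols came from the platform annotation, and all 70 identifiers were found in a RefSeq table of GRCm38.p6 with no symbol changed. Genes whose signals are given were those at or beyond 0.5 on the log2 scale, the ends of each family, those with measured probe sets over 1 apart, bounds of at least 1.5-fold and up to 6 members of another list; other genes with signals were picked with their values in view. The genes, gene lists and rules were chosen with earlier results of these data known. The procedure was tested on simulated data. A genotype had 1 RNA sample, so nothing was tested across samples. Software was Python 3.11.15, numpy 2.4.6, pandas 2.3.3 and statsmodels 0.14.6, and 11 alternatives were tried.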

Additional observations from a re-analysis of the deposited data

How the results depend on the processing

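The median ratio of the guidance genes stayed between -0.02 and 0.05 over 11 alternatives and kept its sign in 6, so it has no settled direction. The count of genes higher in the knockout sample was 16 of 32 under the 70th-percentile floor, 17 of 34 on MOE430A alone and 14 of 25 on MOE430B alone, all of which measure fewer genes, and 21 of 45 with the brightest probe set per gene. Genes at least 2-fold higher numbered 2 under the 30th-percentile floor and 4 with no floor, and genes at least 2-fold lower numbered 3 with no floor and 0 with a pseudocount in its place, under the 70th-percentile floor and on MOE430B alone. The semaphorin median was -0.031 and -0.018 with floors at the 30th and 70th percentiles, -0.20 with no floor, -0.083 with the pseudocount, -0.031 with the brightest probe set and -0.037 on MOE430B alone. The plexin and neuropilin median was -0.17 on MOE430A alone. The Slit and Robo median was -0.24 on MOE430A alone and 0.31 on MOE430B alone. The netrin median was -0.14 without probe sets named _x_at, _s_at or _a_at and -0.26 on MOE430A alone. The cause of these moves was not tested. Eph receptor and ephrin medians kept their sign in all 11 alternatives, which reuse the same 4 arrays. The Eph receptor median ran from 0.03 to 0.16 and the ephrin median from 0.009 to 0.22. Without a repeat culture these medians settle no direction. Efnb2 stayed between 0.39 and 0.53 in the 10 alternatives that measured it, and Nrp1 between -0.61 and -0.13 in all 11. Slit2 ranged from -1.05 to -0.03 in 9, and Epha7 from -0.37 to 0.50 in 9. Signals near the floor limit what these arrays can show. No paired analysis was possible because each genotype had 1 sample and the labels give no replicate numbers.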

Other observations

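Guidance genes with the E2F word GGCGGGA in their RefSeq window were set beside those without it, a split made after the values were seen. Of 10 measured genes with the word, 3 were higher in the knockout sample and 7 lower, where 49.8% of all measured genes were higher. The median ratio of the 10 was -0.16. The 7 were Nrp1, Sema4a, Sema4c, Ntn4, Sema6c, Epha4 and Efna2, and the other 3 were Sema4d, Nrp2 and Plxnb1. The 28 measured guidance genes with a window and without the word had a median of 0.08. Over all 1988 measured genes with the word the median was 0.006, against -0.007 for those without it. The part of the word in the guidance genes' values was not tested.

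Some ligand and receptor values are set side by side here, chosen after they were seen. Sema7a stood at 0.23 and its receptor Plxnc1 at -0.34. Flrt2 stood at -0.56. Of the Unc5 receptors, Unc5c stood at -0.54, or -0.14 under the 30th-percentile floor, and Unc5a at 0.07. Unc5b was over the floor only in the wild type and Unc5d only in the knockout sample. Efnb2 stood at 0.52, and its receptors Ephb4 and Epha4 at 0.06 and -0.06.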
